A study of Homo sapiens with 24 samples.

Results

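The 41 genes described here encode ribosome biogenesis factors, the proteins that transcribe, modify, cut and fold ribosomal RNA. They were chosen by gene symbol, and each of the 41 was found once in the table of every line, and the tables list 33561 (LAN5), 30271 (IMR5), 32760 (SK-N-FI) and 29328 (SK-N-BE(2)) genes. The 41 genes were divided into 5 groups by role: 5 genes of the RNA polymerase I machinery, 8 of small nucleolar ribonucleoproteins (snoRNPs), 11 of small subunit assembly, 12 of large subunit assembly and 5 other nucleolar proteins.

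Polyadenylated RNA was sequenced from 4 human neuroblastoma cell lines, either untreated or treated with GSK-J4 at 1 µM for 72 hours. GSK-J4 is a cell-permeable inhibitor of the KDM6 family of demethylases, which remove methyl groups from histone H3. LAN5 and IMR5 are labelled as MYCN amplified and sensitive to the compound, SK-N-FI as MYCN wildtype and sensitive, and SK-N-BE(2) as MYCN amplified and resistant. Each of the 8 groups held 3 libraries, 24 in all. There is only 1 resistant line and only 1 wildtype line, so a difference involving either of them is a difference between lines. The labels give no growth medium or other alleles, and no solvent or culture time was listed for untreated cells.

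Ribosome production starts in the nucleolus, where RNA polymerase I copies ribosomal DNA into a long precursor. The snoRNPs guide methylation and pseudouridylation of that precursor, and the small subunit processome and the large subunit factors cut it and assemble it with ribosomal proteins. MYC family transcription factors, including MYCN, are known to bind and activate many genes of this pathway, often through the sequence CACGTG, called an E-box. Neuroblastoma with MYCN amplification is known for cells with prominent nucleoli.

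The sequences around the transcription start sites are shown first, because CACGTG is the letter string that MYC family factors are known to bind. In RefSeq sequences of build GRCh38.p14, 36 of the 41 genes had an entry covering 250 bases before to 50 bases after the start. CACGTG, which reads the same on both strands, was present in 14 of those 36, or 38.9%. It was present in 8.77% of 27305 genes with an entry and in 13.7% of 6881 genes with an entry whose mean normalized count reached 100 in every line. The related string CACGCG, searched on both strands, was present in 33.3% of the 36 genes and in 24.6% of the 6881. No test was made of these shares, and a match is not evidence of binding. In 4 of the 14 genes the string began before the start, at most 64 bases from it, and in 10 at or after it, at most 36 bases from it.

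The 6 genes with CACGTG whose mRNA was lowest after treatment, by their mean change in LAN5 and IMR5, are given first. Each line shows 30 bases, 5′ to 3′ on the gene's strand, with CACGTG in capitals.
UTP20 (chr12:101280083-101280112, plus strand): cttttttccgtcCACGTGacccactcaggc
MYBBP1A (chr17:4555340-4555369, minus strand): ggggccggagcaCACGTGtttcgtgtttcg
RRP9 (chr3:51941892-51941921, minus strand): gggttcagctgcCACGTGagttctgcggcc
NOP14 (chr4:2963374-2963403, minus strand): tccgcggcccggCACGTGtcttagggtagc
PES1 (chr22:30591880-30591909, minus strand): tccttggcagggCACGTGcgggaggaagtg
BYSL (chr6:41921515-41921544, plus strand): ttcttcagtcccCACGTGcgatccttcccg

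The next 3 also hold CACGTG and had mean changes in LAN5 and IMR5 of −0.20 (NOP2, called lower in IMR5), −0.04 (NOC3L, called lower in LAN5 and higher in IMR5) and 0.02 (DDX21, called in neither). They are shown for contrast and were picked after their values were seen. WDR43, with CACGTG and a mean of −0.20, is not shown.
NOP2 (chr12:6568242-6568271, minus strand): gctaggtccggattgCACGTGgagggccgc
NOC3L (chr10:94362903-94362932, minus strand): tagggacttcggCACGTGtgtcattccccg
DDX21 (chr10:68956604-68956633, plus strand): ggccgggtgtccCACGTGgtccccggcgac

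For the gene with the lowest change in LAN5 and IMR5, UTP20, and the gene with the smallest p in the comparison with SK-N-BE(2), NCL, the 250 bases before the start are shown. The UTP20 sequence holds CACGTG 1 time, in capitals, at its start-proximal end, and 47.6% of its bases are G or C. The NCL sequence has 72% G or C and 0 copies of CACGTG.
UTP20 (chr12:101279855-101280104, plus strand): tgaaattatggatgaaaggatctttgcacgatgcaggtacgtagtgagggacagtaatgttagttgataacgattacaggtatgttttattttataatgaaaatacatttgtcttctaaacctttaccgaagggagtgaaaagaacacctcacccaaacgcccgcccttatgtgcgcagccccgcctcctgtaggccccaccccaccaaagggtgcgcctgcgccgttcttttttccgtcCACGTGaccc
NCL (chr2:231464485-231464734, minus strand): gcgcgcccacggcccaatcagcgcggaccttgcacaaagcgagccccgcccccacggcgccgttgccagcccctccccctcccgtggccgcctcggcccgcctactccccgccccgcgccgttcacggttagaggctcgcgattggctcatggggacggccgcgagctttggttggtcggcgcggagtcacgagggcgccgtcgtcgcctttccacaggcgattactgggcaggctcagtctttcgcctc

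The values come from 1 table per line, made by the authors with DESeq2, which gives each gene's mean normalized count over all libraries of the line, its log2 fold change with standard error, and an adjusted p-value. Values of single libraries were not used here, so spread is given as the standard error (SE) of the fold change and not as a standard deviation. A gene is called at an adjusted p under 0.05. The authors' fold changes are drawn toward 0 by a statistical prior that differs in strength between tables, and it was removed by calculation so that lines can be compared. Fold changes below are these prior-removed values, as log2 of GSK-J4 over untreated, while calls and adjusted p-values are those of the authors' deposited tables. A level is a mean normalized count scaled to a table total of 1000000, written CPM. Levels in untreated and treated cells were implied from the mean and the fold change, on the assumption of equal numbers of libraries.

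Sums of mean normalized counts were between 15458940 in LAN5 and 19445359 in IMR5, and depth per library is unknown. The labels do not say whether replicates were separate cultures, and a p-value then reflects library-to-library spread alone, which may be technical. The table used for SK-N-FI was matched to that line by a similar short name and by elimination. Of 8 neuroblastoma markers, 7 or 8 were listed in every table (TH was missing in IMR5 and SK-N-FI), and their summed level in untreated cells was between 1391 and 2814 CPM. Markers of immune and endothelial cells summed to at most 10.4 CPM in any group. Schwann and glial markers, among which SOX10 was listed in no table, went from 3.69 untreated to 23.9 CPM treated in LAN5 (3 called higher, 0 lower) and from 2.21 to 6.65 in IMR5 (1 higher, 0 lower). They summed to 10.8 and 10.1 CPM in SK-N-FI, and to 3.02 and 3.66 in SK-N-BE(2). Fibroblast and muscle markers went from 99.6 to 87.4 CPM in LAN5 (3 higher, 3 lower), from 42.9 to 140 in IMR5 (2 higher, 2 lower), from 161 to 200 in SK-N-FI (2 higher, 2 lower) and from 1907 to 2304 in SK-N-BE(2) (3 higher, 1 lower). The part of these markers in the results below was not tested. In bulk RNA, fewer cells of a type and less RNA per cell cannot be told apart.

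In LAN5, 34 of the 41 mRNAs fell and 0 rose. In the authors' deposited table, 19.2% of all tested genes were called lower and 22.5% higher, or 38.9% and 28.2% of those with a mean of at least 100. Over the 41 mRNAs the median change was −0.51, against −0.09 over all genes with a mean of at least 100, and 40 of the 41 values were negative. In IMR5, 34 fell and 2 rose, against 21.6% of all tested genes called lower and 22.6% called higher, or 35.7% and 34% of those with a mean of at least 100. In IMR5 the 41 had a median of −0.45, against −0.02 over all tested genes with a mean of at least 100. Both MYCN-amplified sensitive lines thus held the same number of lowered members, and 30 mRNAs fell in both, compared with 11.6% of all genes tested in both tables and 22% of those with a mean of at least 100 in both. FBL, NOC3L, NOC4L and WDR75 were called lower in LAN5 and not in IMR5, and NOP2, NOP58, POLR1C and RRN3 in IMR5 and not in LAN5.

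In SK-N-FI the same genes were split, with 11 higher and 9 lower. The authors' deposited table for SK-N-FI calls 16.8% of all tested genes higher and 14.8% lower, or 25% and 24.1% of those with a mean of at least 100, so the shares of the 41 were near the background. The median was 0.05, and the values ran from −1.12 to 1.19. In SK-N-BE(2), 1 of the 41, UBTF, fell and 0 rose, where the authors' deposited table has 0.858% of tested genes called lower and 1.62% called higher, or 1.02% and 1.86% of those with a mean of at least 100. At an unadjusted p under 0.05 by the same DESeq2 test, 5 of the 41 were lower and 1 higher in SK-N-BE(2). Of all 13407 genes tested there, 543 were lower and 842 higher at that threshold. The median of the 41 was −0.03 and every value of theirs in SK-N-BE(2) lay between −0.22 and 0.16. The 95% intervals of the SK-N-BE(2) changes all lay within 0.5 of 0, and those of 35 genes within 0.3 of 0.

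**Figure D1:**
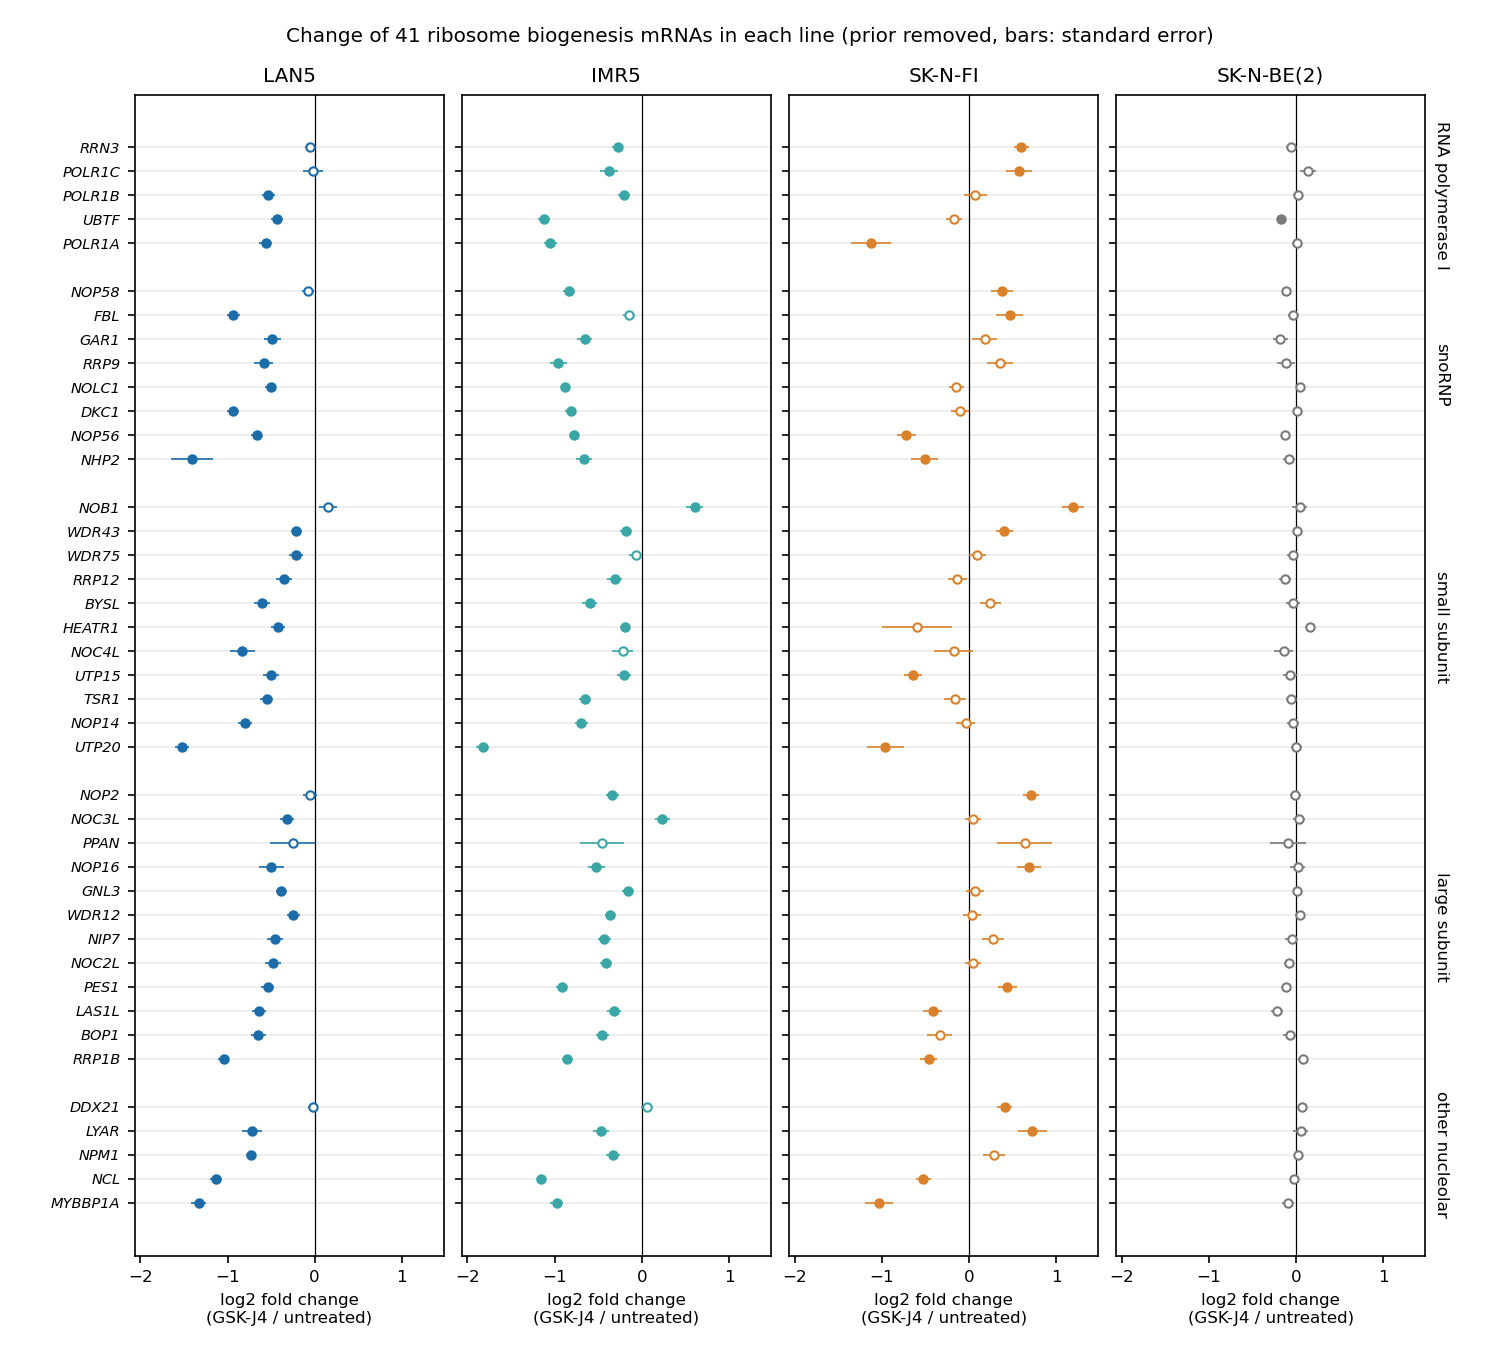
The horizontal axis gives the prior-removed log2 fold change of each of the 41 mRNAs (rows, grouped by role) in each line, with bars of 1 standard error, and filled points mark genes called in the authors' deposited table. Points lie left of 0 for 40 genes in LAN5 and 38 in IMR5, lie on both sides in SK-N-FI, and stay between −0.22 and 0.16 in SK-N-BE(2).

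Read by pattern, 16 mRNAs were called lower in LAN5 and IMR5 and in neither other line. Another 9 were called lower in all 3 sensitive lines: LAS1L, MYBBP1A, NCL, NHP2, NOP56, POLR1A, RRP1B, UTP15 and UTP20. LYAR, NOP16, PES1 and WDR43 were called lower in LAN5 and IMR5 and higher in SK-N-FI. In total, 10 genes were called in opposite directions in different lines. The shares of all genes with these patterns were not counted, so these counts describe the members alone. PPAN, a large subunit factor, was called in no line; its mean was the lowest of the 41 in every line (at most 5.19 CPM), and its exons overlap the read-through gene PPAN-P2RY11 over 1447 bases on the same strand.

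**Figure D2:**
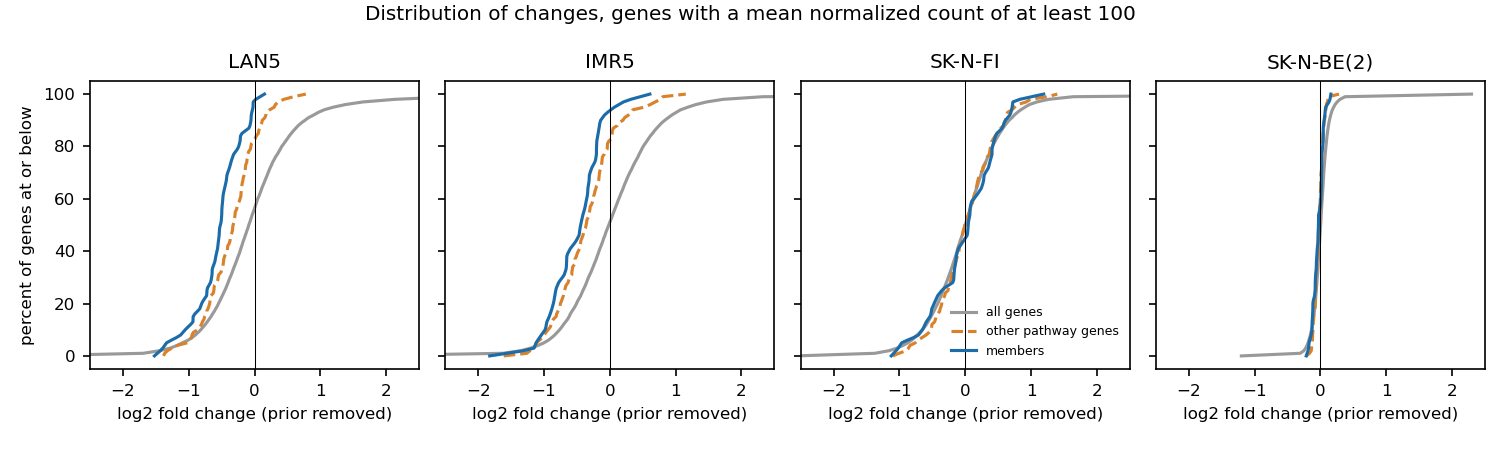
Each curve gives the percent of genes (vertical axis) with a prior-removed log2 fold change at or below the value on the horizontal axis, for 40 members, other genes of the pathway and all genes, each with a mean normalized count of at least 100. In LAN5 and IMR5 the member curve lies left of the curve of all genes, with medians of −0.52 against −0.09 and −0.44 against −0.02, while in SK-N-FI and SK-N-BE(2) the curves run close together.

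Among the 5 genes of the RNA polymerase I machinery, 3 fell in LAN5 and 5 in IMR5, 2 rose and 1 fell in SK-N-FI, and 1 fell in SK-N-BE(2). POLR1A, the largest catalytic subunit, was called lower in all 3 sensitive lines. Its implied level went from 209 to 142 CPM in LAN5, from 227 to 110 in IMR5, from 125 to 57.5 in SK-N-FI and from 156 to 157 in SK-N-BE(2). The change of POLR1A was −0.56 ± 0.0749 (SE) in LAN5, −1.05 ± 0.0767 in IMR5 and −1.12 ± 0.233 in the SK-N-FI cells, while SK-N-BE(2) had 0.01 ± 0.0569. SK-N-FI had the lowest POLR1A level of the 4 lines in both conditions. POLR1B, the other large subunit, was called lower in LAN5 (−0.53 ± 0.0775) and IMR5 (−0.20 ± 0.0711), and was 0.07 ± 0.135 in SK-N-FI.

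RRN3, which brings the polymerase to ribosomal DNA promoters, and POLR1C, a subunit shared with RNA polymerase III, had other patterns than POLR1A. RRN3 rose in SK-N-FI, from 127 to 194 CPM (0.60 ± 0.0823), and fell in IMR5 (−0.28 ± 0.0643). It was −0.05 ± 0.0642 in LAN5 and −0.06 ± 0.05 in SK-N-BE(2). RRN3 has near-identical pseudogene copies, among which the counting could have split reads. POLR1C rose in SK-N-FI (0.57 ± 0.149), fell in IMR5 (−0.38 ± 0.102), and was −0.02 ± 0.110 in LAN5 and 0.14 ± 0.0935 in SK-N-BE(2). Within the same complex, POLR1A and POLR1C were called in opposite directions in SK-N-FI.

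UBTF, which binds along ribosomal DNA and keeps it in an active form, was the member called in SK-N-BE(2). It went from 184 to 163 CPM there, a change of −0.17 ± 0.0506 with an adjusted p of 0.0313 in the authors' deposited table. In IMR5 the fall was from 237 to 109 CPM (−1.12 ± 0.0698), in LAN5 from 226 to 168 (−0.43 ± 0.0697), and SK-N-FI had −0.17 ± 0.0916. The SK-N-FI value equals that of SK-N-BE(2) to 2 decimals with a larger error, and it was not called.

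Of the 8 snoRNP genes, 7 fell in LAN5 and 7 in IMR5, while 2 rose and 2 fell in SK-N-FI and 0 were called in SK-N-BE(2). The box H/ACA proteins, which carry out pseudouridylation, include the synthase DKC1 and its partners NHP2 and GAR1. NHP2 went from 104 to 39.4 CPM in LAN5, from 49.5 to 31.3 in IMR5, from 22.4 to 15.7 in SK-N-FI and from 67.0 to 63.4 in SK-N-BE(2). These are changes of −1.41 ± 0.242, −0.66 ± 0.0949, −0.51 ± 0.152 and −0.08 ± 0.0681, the first 3 of them called. DKC1 fell in LAN5 (−0.94 ± 0.0691) and IMR5 (−0.82 ± 0.0612) and was not called in SK-N-FI (−0.10 ± 0.106) or SK-N-BE(2) (0.01 ± 0.0429). GAR1 had the same calls, with −0.49, −0.66, 0.18 and −0.18.

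The box C/D proteins direct ribose methylation, with FBL as the methyltransferase and NOP56 and NOP58 as its paired scaffold proteins. NOP56 was called lower in all 3 sensitive lines with close values: LAN5 had −0.66 ± 0.0601, IMR5 −0.77 ± 0.0600 and SK-N-FI −0.72 ± 0.109. NOP58 fell in IMR5 (from 234 to 131 CPM, −0.84 ± 0.0662) and rose in SK-N-FI (from 148 to 192, 0.38 ± 0.122). It was −0.08 ± 0.0699 in LAN5 and −0.12 ± 0.0452 in SK-N-BE(2). FBL fell in LAN5, from 164 to 85.8 CPM (−0.93 ± 0.0723), rose in SK-N-FI from 83.1 to 115 (0.47 ± 0.155), and was −0.15 ± 0.0705 in IMR5 and −0.03 ± 0.0633 in SK-N-BE(2). The rise of FBL in SK-N-FI was lost when the median of genes of like transcript length was subtracted (0.33, adjusted p 0.0599, Wald test over all genes with a mean of at least 100). FBL and NOP58 were thus called lower in different lines of the MYCN-amplified pair, and the difference between those lines was called for both. RRP9, specific to the U3 snoRNP, and the chaperone NOLC1 fell in LAN5 (−0.58 and −0.51) and IMR5 (−0.96 and −0.88), and were 0.35 ± 0.150 and −0.14 ± 0.0858 in SK-N-FI.

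Of the 11 small subunit genes, 10 fell in LAN5, 8 fell and 1 rose in IMR5, 2 fell and 2 rose in SK-N-FI, and 0 were called in SK-N-BE(2). UTP20, a large scaffold protein of the processome encoded at chr12:101280109-101386616 on the plus strand, had the lowest change of all members in both LAN5 and IMR5. It went from 157 to 54.7 CPM in LAN5 and from 323 to 91.0 in IMR5. In SK-N-FI it went from 217 to 111, and in SK-N-BE(2) from 130 to 130. The changes of UTP20 were −1.52 ± 0.0771, −1.83 ± 0.0751, −0.96 ± 0.211 and 0.00 ± 0.0594. UTP20 in treated IMR5 cells was 28.2% of the untreated level, and in SK-N-BE(2) the 95% interval of its change ran from −0.11 to 0.12.

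NOP14 fell in LAN5 (−0.80 ± 0.0816) and IMR5 (−0.70 ± 0.0735), and NOC4L, its partner in the processome, fell in LAN5 (−0.83 ± 0.144) with −0.22 ± 0.121 in IMR5. BYSL and TSR1, which act in late steps of the small subunit, fell in both lines (BYSL −0.60 and −0.60, TSR1 −0.55 and −0.65). RRP12 fell too, with −0.35 in LAN5 and −0.31 in IMR5. HEATR1, a very large processome protein, fell in LAN5 (−0.42 ± 0.0800) and IMR5 (−0.20 ± 0.0556), and SK-N-FI had −0.60 ± 0.405. The SK-N-FI error of HEATR1 is the largest of the members, and that value was not called.

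UTP15, WDR43 and WDR75 belong to the subcomplex of the processome that is tied to ribosomal DNA transcription, and their calls differed. UTP15 was called lower in all 3 sensitive lines, where LAN5 had −0.50 ± 0.0933, IMR5 −0.20 ± 0.0831 and SK-N-FI −0.64 ± 0.102. WDR43 was called lower in LAN5 (−0.21 ± 0.0645) and IMR5 (−0.18 ± 0.0717) and higher in SK-N-FI (0.41 ± 0.0932), with 0.01 ± 0.0446 in SK-N-BE(2). The LAN5 call of WDR43 was lost when the median of all genes was subtracted (−0.12, adjusted p 0.0771, Wald test), and that of WDR75, −0.22 ± 0.0806 in LAN5, was lost in the same way (adjusted p 0.136). WDR43 lost its IMR5 call when genes of like transcript length were used (adjusted p 0.114).

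NOB1, the endonuclease that makes the last cut of small subunit RNA, was the member that rose most. It went from 17.0 to 38.9 CPM in SK-N-FI (1.19 ± 0.125), from 49.4 to 75.3 in IMR5 (0.61 ± 0.0992), from 25.4 to 28.3 in LAN5 (0.15 ± 0.105) and from 38.7 to 39.8 in SK-N-BE(2) (0.04 ± 0.0836). The LAN5 value was not called in the authors' deposited table and passed (0.24, adjusted p 0.0353, Wald test) after the median of all genes was subtracted. NOB1 lies at chr16:69741867-69754940 on the minus strand, and its exons overlap an antisense gene over 429 bases; use of strand in the authors' counting is not stated.

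Of the 12 large subunit genes, 10 fell in LAN5, 10 fell and 1 rose in IMR5, 2 fell and 3 rose in SK-N-FI, and 0 were called in SK-N-BE(2). RRP1B had the lowest mean change of them over the sensitive lines. It went from 224 to 109 CPM in LAN5, from 260 to 144 in IMR5, from 74.7 to 54.2 in SK-N-FI and from 164 to 172 in SK-N-BE(2). The changes of RRP1B were −1.04 ± 0.0637, −0.85 ± 0.0611, −0.46 ± 0.0986 and 0.08 ± 0.0489. RRP1B thus fell in each sensitive line, from a level in untreated SK-N-FI cells below that of the treated cells of LAN5 and IMR5.

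PES1, BOP1 and WDR12 form the PeBoW complex, which is needed for processing of large subunit RNA. All 3 fell in LAN5 and IMR5, with values of −0.54, −0.65 and −0.25 in LAN5 and −0.91, −0.45 and −0.36 in IMR5. In SK-N-FI, PES1 rose from 80.9 to 110 CPM (0.44 ± 0.110), while BOP1 was −0.33 ± 0.144 and WDR12 0.03 ± 0.107, neither called. BOP1 in SK-N-FI was called lower (adjusted p 0.0386, Wald test) after the median of all genes with a mean of at least 100 was subtracted. The adjustment in that setting was made over those genes only, and the BOP1 value itself went from −0.334 to −0.336. The LAN5 call of WDR12 was lost in that setting (−0.16, adjusted p 0.0519).

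NOP2, an RNA cytosine methyltransferase, rose in SK-N-FI from 93.7 to 154 CPM (0.71 ± 0.0889) and fell in IMR5 (−0.34 ± 0.0741). It was −0.05 ± 0.0819 in LAN5 and −0.01 ± 0.0669 in SK-N-BE(2). Its exons overlap another annotated gene on the same strand over 2538 bases, so its reads could have been split. NOP16 rose in SK-N-FI from 21.2 to 34.2 CPM (0.69 ± 0.141) and fell in LAN5 (−0.50 ± 0.142) and IMR5 (−0.52 ± 0.0990), with 0.02 ± 0.0841 in SK-N-BE(2). NOC3L was called in opposite directions within the MYCN-amplified pair, −0.32 ± 0.0814 in LAN5 and 0.24 ± 0.0826 in IMR5, and was not called in SK-N-FI (0.04 ± 0.0907) or SK-N-BE(2) (0.03 ± 0.0683). NOC2L, the partner of NOC3L, fell in both (−0.48 and −0.41). LAS1L, which cuts the spacer next to large subunit RNA, fell in LAN5 (−0.64), IMR5 (−0.32) and SK-N-FI (−0.42), and had the lowest value of the members in SK-N-BE(2), −0.22 ± 0.0713, which was not called (adjusted p 0.0798 in the authors' deposited table). The nucleolar GTP-binding protein GNL3 and the large subunit factor NIP7 fell in LAN5 (−0.38 and −0.45) and IMR5 (−0.16 and −0.43), and the IMR5 call of GNL3 was lost with genes of like transcript length subtracted (adjusted p 0.201, Wald test). NIP7 was 0.28 ± 0.126 in SK-N-FI, not called in the authors' deposited table and called (adjusted p 0.0475) in that same length setting.

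Of the 5 other nucleolar genes, 4 fell in LAN5 and 4 in IMR5, 2 rose and 2 fell in SK-N-FI, and 0 were called in SK-N-BE(2). NCL and NPM1, the abundant nucleolar phosphoproteins nucleolin and nucleophosmin, fell in LAN5 and IMR5. NCL went from 1973 to 900 CPM in LAN5, from 1766 to 792 in IMR5, from 898 to 624 in SK-N-FI and from 1717 to 1682 in SK-N-BE(2). The changes of NCL were −1.13 ± 0.0645, −1.16 ± 0.0529, −0.53 ± 0.0853 and −0.03 ± 0.0346. The 3 MYCN-amplified lines had implied NCL levels between 1717 and 1973 before treatment, and after it SK-N-BE(2) stood above both others. NPM1 went from 885 to 535 CPM in LAN5 (−0.73 ± 0.0563), from 2240 to 1779 in IMR5 (−0.33 ± 0.0816), from 431 to 527 in SK-N-FI (0.29 ± 0.128, not called) and from 1842 to 1865 in SK-N-BE(2) (0.02 ± 0.0377). NPM1 has many processed pseudogenes, so reads could have been shared among copies. In SK-N-FI, NPM1 and RRP9 were called higher (adjusted p 0.0469 and 0.0375, Wald test) when the median of all genes was subtracted and the adjustment made over genes with a mean of at least 100.

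MYBBP1A, a nucleolar protein that binds the transcription factor MYB, went from 67.2 to 26.7 CPM in LAN5, from 83.3 to 42.3 in IMR5, from 89.6 to 43.9 in SK-N-FI and from 72.3 to 67.9 in SK-N-BE(2). The changes of MYBBP1A were −1.33 ± 0.0868, −0.98 ± 0.0749, −1.03 ± 0.163 and −0.09 ± 0.0700. LYAR, a nucleolar zinc finger protein, fell in LAN5 (−0.72 ± 0.114) and IMR5 (−0.47 ± 0.0951), rose in SK-N-FI from 41.8 to 69.2 CPM (0.73 ± 0.166) and was 0.05 ± 0.0848 in SK-N-BE(2). DDX21, an RNA helicase of the nucleolus, was the abundant member without a fall in any line. It went from 821 to 1090 CPM in SK-N-FI (0.41 ± 0.0857), and the other lines were not called (LAN5 −0.02 ± 0.0537, IMR5 0.06 ± 0.0732, SK-N-BE(2) 0.07 ± 0.0430).

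**Figure D3:**
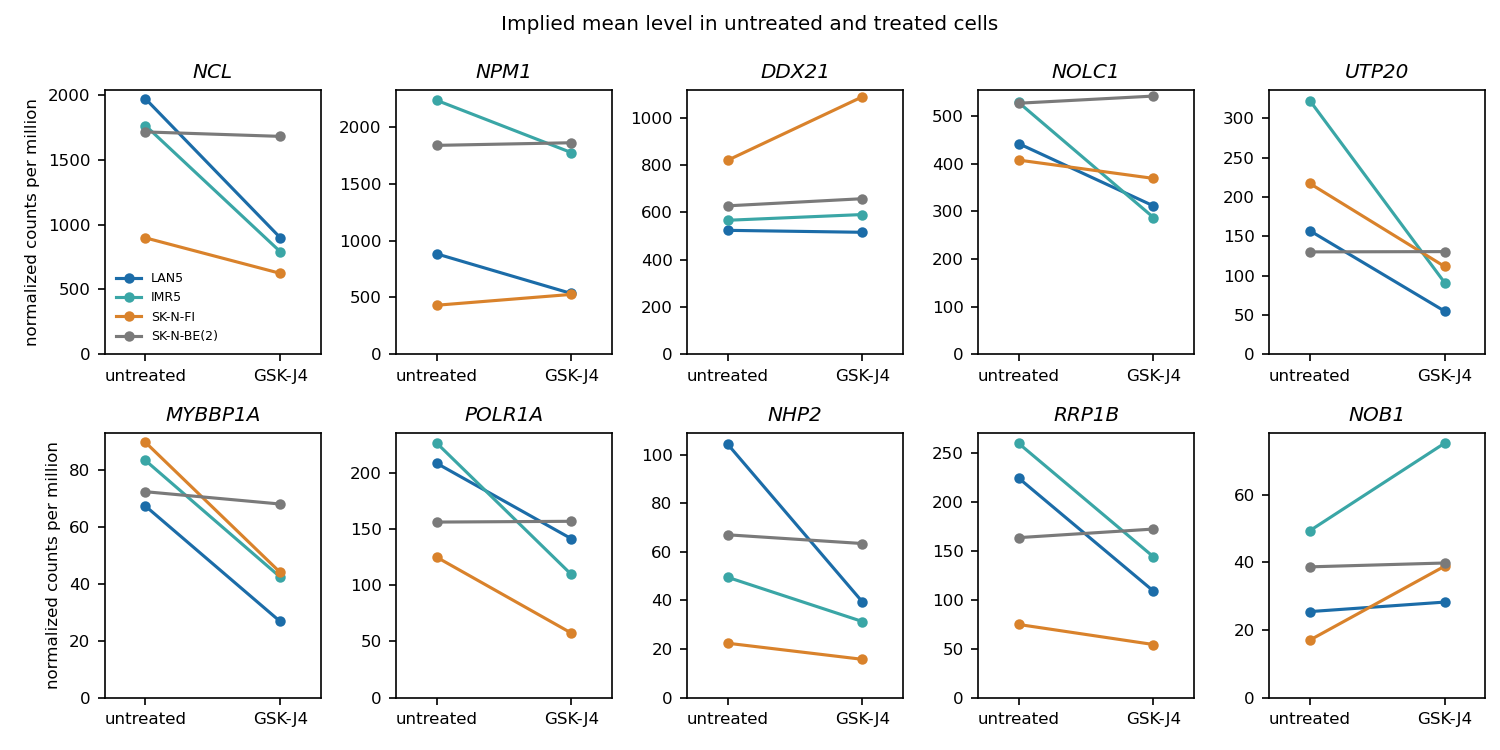
Each panel plots the implied mean level of 1 gene, in CPM on a linear axis from 0, in untreated and GSK-J4-treated cells of the 4 lines; no values of single libraries are shown and no error is drawn. NCL goes from 1973 to 900 in LAN5 and from 1766 to 792 in IMR5 and goes from 1717 to 1682 in SK-N-BE(2), while NOB1 goes up in SK-N-FI from 17.0 to 38.9.

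Summed over the 41 genes, the implied level went from 7563 to 4817 CPM in LAN5, or to 63.7% of the untreated sum, and from 9734 to 6641 in IMR5, or to 68.2%. The sums in SK-N-FI (5885 and 5857) and SK-N-BE(2) (8239 and 8194) stood at 99.5% of untreated in each. NCL and NPM1 make up much of these sums, and without them the percentages for LAN5, IMR5, SK-N-FI and SK-N-BE(2) were 71.9%, 71.1%, 103% and 99.3%. Since the tables were normalized separately, no test was made of levels between lines.

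Per kilobase of exon, NPM1, NCL and DDX21 had the highest mean levels of the 41 genes over the 4 lines. DDX21 ranked highest in SK-N-FI at 190 CPM per kilobase, just above NCL (189) and NPM1 (184). NCL ranked highest in LAN5 (356) and NPM1 in IMR5 (771) and SK-N-BE(2) (711). The mean level over both conditions differed more than 2-fold between the highest and the lowest line for 13 genes. Of these, NPM1 had the widest ratio, 4.19 between IMR5 and SK-N-FI, followed by NHP2 (3.77, LAN5 over SK-N-FI) and BOP1 (3.41, SK-N-BE(2) over SK-N-FI). SK-N-FI had the highest level of NOC2L, 3.15 times that of LAN5. In all, LAN5 held the lowest level for 19 genes and the highest for 4, and IMR5 the lowest for 4 and the highest for 13. SK-N-FI held the lowest level for 15 genes and the highest for 11, while SK-N-BE(2) held the lowest for 3 and the highest for 13. Neither these counts nor that of genes over 2-fold apart were made over all genes, so they describe the members alone.

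The first comparison between lines asked whether the effect in the sensitive lines differed from that in SK-N-BE(2), using the mean of LAN5, IMR5 and SK-N-FI minus SK-N-BE(2). Differences were tested with a two-sided Wald test with Benjamini-Hochberg adjustment over the 8969 genes whose mean reached 100 in each of the 4 tables, which include 40 of the 41 members and not PPAN. The difference was lower in 24 members and higher in 2 (NOB1 and RRN3), where 32.7% of all genes tested were lower and 26.4% higher. The median difference of the 40 was −0.24, against −0.04 over all genes tested. NCL led with −0.91 ± 0.0527 (SE, adjusted p 1.61e-64), followed by UTP20 (−1.44 ± 0.0987), RRP1B (−0.86 ± 0.0658) and MYBBP1A (−1.02 ± 0.0964). Each of these 4 was called lower in all 3 sensitive lines. NOB1 was higher by 0.61 ± 0.105, and was called higher in IMR5 and SK-N-FI but not in LAN5. RRN3 was called higher in SK-N-FI only, lower in IMR5, and was not called in LAN5.

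By role, the difference was lower in 3 of 5 polymerase I genes, 5 of 8 snoRNP genes, 6 of 11 small subunit genes, 7 of 11 large subunit genes tested and 3 of 5 others. The 95% interval of the change in SK-N-BE(2) lay wholly above that in LAN5 for 31 of the 41 genes. It lay above that in IMR5 for 27 and above that in SK-N-FI for 7. Intervals were not compared in this way over all genes, so these counts describe the members alone. WDR43, whose calls ran in opposite directions among the sensitive lines, had a difference of −0.01 with an interval from −0.13 to 0.12.

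The second comparison set the MYCN-amplified sensitive pair against SK-N-FI, which is labelled sensitive and MYCN wildtype, and it shares the LAN5, IMR5 and SK-N-FI tables with the first. The mean change in LAN5 and IMR5 was lower than that in SK-N-FI for 29 of 40 members and higher for 1 (UTP15), against 28.4% and 18.9% of all genes tested. The median difference was −0.58, against −0.08 over all genes tested, and 37 of 40 differences were negative. PES1 had −1.16 ± 0.121 (adjusted p 4.75e-20, Wald test), NOP2 −0.91 ± 0.105, RRN3 −0.76 ± 0.0940 and LYAR −1.32 ± 0.182. These 4 rose in SK-N-FI and were called lower in at least 1 line of the pair.

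By role, 4 of 5 polymerase I genes, 7 of 8 snoRNP genes, 6 of 11 small subunit genes, 8 of 11 large subunit genes and 4 of 5 others were lower in the pair. NCL, which fell in SK-N-FI too, still had a difference of −0.62 ± 0.0950. The members with no call in this comparison include POLR1A (0.32, interval from −0.15 to 0.79), MYBBP1A (−0.13, from −0.46 to 0.21) and NOP56 (−0.00, from −0.23 to 0.23). The interval of POLR1A is wider than that of NOP56, as its SK-N-FI error is larger.

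**Figure D4:**
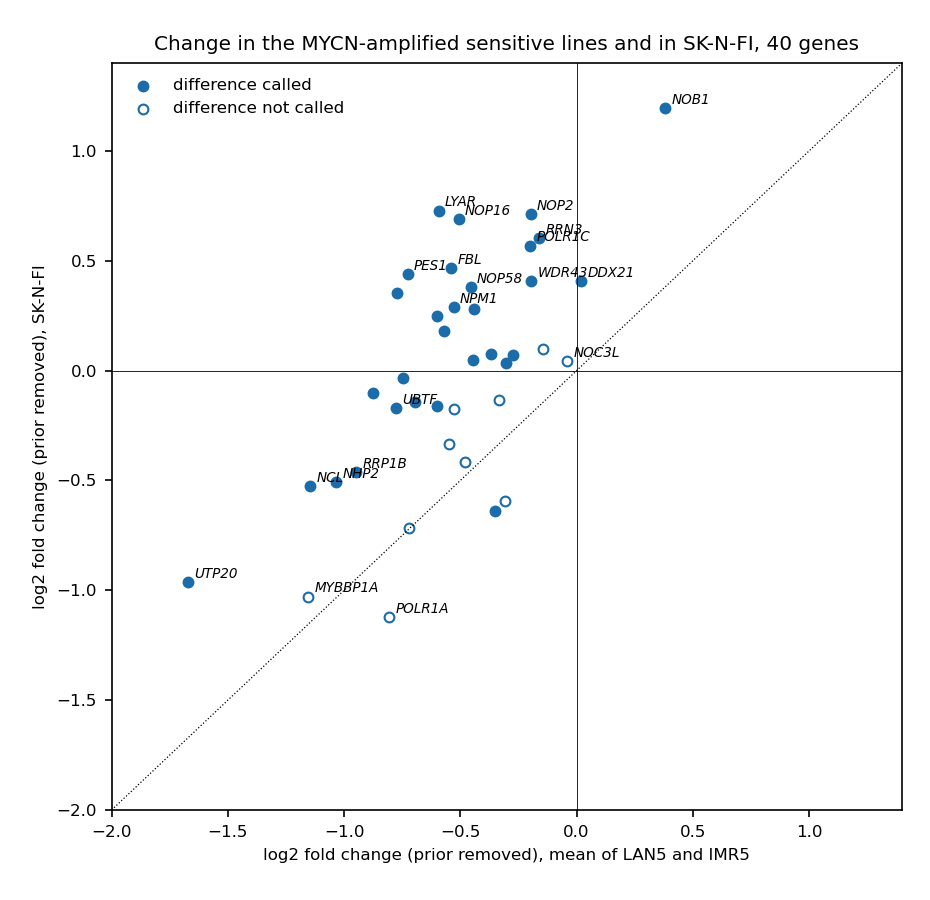
Each point is 1 of 40 genes, with the prior-removed log2 fold change as the mean of LAN5 and IMR5 on the horizontal axis and in SK-N-FI on the vertical axis; filled points differ by the Wald test, the dotted line marks equal change, and names are given for genes chosen by the naming rule. Most points lie above the line, with a median difference of −0.58, and MYBBP1A, at −1.15 and −1.03, lies close to it.

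The third comparison was within the MYCN-amplified sensitive pair, LAN5 minus IMR5. The change was lower in LAN5 for 13 members and higher for 10, against 33.6% and 27.3% of all genes tested. The median difference was −0.06 over the 40 members and also −0.06 over all genes tested. NOP58 was higher by 0.76 ± 0.0963 (adjusted p 3.28e-14, Wald test) and UBTF by 0.69 ± 0.0986, while FBL was lower by 0.79 ± 0.101 and NOC3L by 0.56 ± 0.116. NCL differed by 0.02, with an interval from −0.14 to 0.19, and BYSL by −0.00, from −0.25 to 0.25. All 5 polymerase I genes were called in this comparison, 4 of them higher in LAN5 and POLR1B lower.

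Across the 40 members, the changes in LAN5 and IMR5 had a Pearson correlation of 0.62 (Spearman 0.54), those in LAN5 and SK-N-FI 0.63 (0.54) and those in IMR5 and SK-N-FI 0.53 (0.40). Over 8969 genes the Pearson values were 0.47, 0.40 and 0.46. These are correlations across genes, which are not independent replicates, and they are given as a description. The order of the members was thus shared in part between SK-N-FI and the pair although their medians differed, with UTP20, MYBBP1A and NCL toward the low end and NOB1 at the high end in all 3 lines.

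Genes with CACGTG had a slightly lower median than those without it in both lines of the MYCN-amplified pair. In LAN5 the 14 genes with it had a median of −0.56 and the 22 without it −0.50, and in IMR5 the medians were −0.53 and −0.39. In SK-N-FI the medians were 0.30 with CACGTG (6 higher, 2 lower) and −0.03 without (4 higher, 6 lower), and in SK-N-BE(2) −0.02 and −0.04. The ranges overlapped in every line, and no test was made of these groups. UTP20 and DDX21, both with CACGTG, had changes in IMR5 of −1.83 and 0.06.

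Other genes of the pathway, from 5 lists of factors outside the 41, were counted in the same way. Of 129 tested, 81 fell and 7 rose in LAN5, 83 fell and 13 rose in IMR5, and SK-N-FI had 27 lower and 34 higher by the calls of the authors' deposited tables. In SK-N-BE(2), 0 of 128 were called by the authors' DESeq2 test. At an unadjusted p under 0.05 by that test, 2 were lower and 1 higher, against 543 and 842 of all 13407 genes tested. The median changes of these other pathway genes were −0.32, −0.36, −0.00 and −0.03 in LAN5, IMR5, SK-N-FI and SK-N-BE(2). Beside the 34 of 41 members lower in each of LAN5 and IMR5, these are 81 and 83 of 129 genes.

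Among other RNA polymerase I genes, CD3EAP, a polymerase subunit, fell in LAN5 (−1.35 ± 0.185) and IMR5 (−1.61 ± 0.183), and was not called in SK-N-FI (−0.50 ± 0.229) or SK-N-BE(2) (0.12 ± 0.203). TAF1D, part of the promoter selectivity factor, rose in IMR5 (0.76 ± 0.268) and SK-N-FI (1.4 ± 0.12). RRS1 and the very large ATPase MDN1, both large subunit factors, fell in all 3 sensitive lines. For LAN5, IMR5 and SK-N-FI, RRS1 had −1.37, −1.06 and −0.64 and MDN1 had −1.03, −0.76 and −0.84. Of the small subunit factors, RRP7A fell in all 3 (−0.48, −1.13 and −0.86), and the helicase DHX37 fell in LAN5 (−1.29) and IMR5 (−0.997) and was −0.03 in SK-N-FI. RUVBL1, an ATPase that helps assemble snoRNPs, fell in all 3 (−0.95, −0.81 and −0.92), and NUFIP1, which works beside it, fell in LAN5 (−0.73) and IMR5 (−0.53). The exosome subunit EXOSC2 fell in all 3 (−0.84, −0.61 and −0.87), and EXOSC4 fell in LAN5 (−0.63) and IMR5 (−1.01).

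Values of other genes, given beside these results, were as follows, and not all of them followed the members in every line. MYCN fell in LAN5 (from 2494 to 664 CPM, −1.91 ± 0.0489) and IMR5 (from 795 to 377, −1.08 ± 0.0709), was low in SK-N-FI (8.04 and 6.43 CPM, −0.32 ± 0.215, not called) and was 0.11 ± 0.0416 in SK-N-BE(2) (not called). MYC stood at 15.7 and 18.5 CPM in untreated and treated SK-N-FI cells (0.24 ± 0.135, not called). In LAN5, MYC was called higher at a low level, from 0.34 to 2.27 CPM (2.76 ± 0.495). It was at most 0.57 CPM in IMR5 and 2.67 CPM in SK-N-BE(2), and was called in neither. MAX was called in no line. MKI67, a marker of dividing cells, fell in LAN5 (−3.41 ± 0.0830), IMR5 (−1.82 ± 0.0680) and SK-N-FI (−2.37 ± 0.231), with 0.04 ± 0.0591 in SK-N-BE(2). TOP2A, also a marker of dividing cells, fell in LAN5 (−2.30 ± 0.0580) and SK-N-FI (−1.23 ± 0.0886) but was not called in IMR5 (−0.10 ± 0.0586) or SK-N-BE(2) (0.04 ± 0.0385). CCNB1, a mitotic cyclin, fell in all 3 sensitive lines (−2.41, −1.36 and −1.51) and was 0.10 in SK-N-BE(2), not called. The 13 mitochondrially encoded mRNAs, which share the library total with all other genes, had medians of −1.01, −0.62, −2.01 and 0.04 in LAN5, IMR5, SK-N-FI and SK-N-BE(2). Of these 13, 9, 8, 13 and 2 fell and 1, 2, 0 and 0 rose in the same order of lines. Neuroblastoma markers were called lower for 8 of 8, 4 of 7, 5 of 7 and 5 of 8 in that order, and higher for 0, 2, 1 and 0. The part of each of these in the changes of the ribosome biogenesis genes was not tested.

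Transcript length moved with the changes in SK-N-FI. Over 33 members with a mean of at least 500, the change in SK-N-FI and the length of the longest annotated transcript had a Spearman correlation of −0.60, against −0.16 over 6577 genes, given as a description. The 4 longest of these members, over 7500 bases, were POLR1A, UTP20, HEATR1 and WDR12. They had a median of −0.78, and the genes of that length overall −0.08. WDR12 was at 0.03, and neither it nor HEATR1 was called. The median SE of the 4 was 0.222, against 0.122 over the 41 members in SK-N-FI. In LAN5, IMR5 and SK-N-BE(2) the Spearman correlation was 0.07, −0.16 and 0.22 over 34, 38 and 37 members, and 0.06, 0.08 and 0.17 over all such genes. With the median of genes of like length subtracted, 11 members were higher and 10 lower in SK-N-FI, a setting chosen after the data were seen. The part of length in the SK-N-FI values of UTP20, POLR1A, HEATR1 and WDR12 was not tested further.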

How the data were processed

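Polyadenylated RNA of 8 groups (4 lines, untreated or GSK-J4) was measured with 3 libraries per group, and per the labels' protocols the library kit keeps strand. Per the submitters' processing notes, the authors used FastQC, STAR and DESeq2 with hg38; these notes give no version, annotation, counting tool, use of strand or design formula. The signal column is, per the file headers, the mean of normalized counts over a line's libraries, each table normalized by the authors on its own. The authors deposited the log2 fold change with its log2 standard error, a Wald score, and p-values before and after adjustment. In the deposited SK-N-BE(2) table the score differed from fold change over standard error by over 0.0001 for 19488 genes, so the removal of the prior may hold less well there. The deposited columns give no direction: it was read as GSK-J4 over untreated from BBC3, higher in the 3 sensitive lines, and from MT2A and SLC30A1, higher also in SK-N-BE(2).

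The prior was removed with a precision taken from the largest standard error (the inverse square of 2 times it), taking the smaller error for genes above the mean where the running median (501 genes) of the standard error peaks. The median prior-removed standard error of genes with a mean of at least 100 was 0.0976 (LAN5), 0.0970 (IMR5), 0.137 (SK-N-FI) and 0.0821 (SK-N-BE(2)). Differences between lines used a two-sided Wald test, Benjamini-Hochberg adjusted and run also on simulated data. The simulation took the same prior and standard errors as given, so it does not check how well they hold in the real data. Exon lengths and gene positions came from GENCODE 29 and start-site sequences from RefSeq. Alternatives were thresholds, minimum means, sizes of change, centring, scaling and transcript length. Python 3.11.15, numpy 2.4.6, pandas 2.3.3, scipy 1.17.1 and matplotlib 3.10.9 were used.

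The members and lists were chosen with earlier results of these data known. Genes given in full were the 6 lowest and 6 highest by mean change over the sensitive lines, those called in SK-N-BE(2) or in opposite directions, the 4 leading each comparison and the 3 with the highest levels, plus up to 2 from each other list. Promoters were printed for the 6 lowest by mean change in LAN5 and IMR5 that hold CACGTG.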

Additional observations from a re-analysis of the deposited data

Results flagged for a closer look

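The effect of GSK-J4 differed between lines, by a Wald test of the difference itself, for the following. In the sensitive lines minus SK-N-BE(2), 26 of 40 members differed, led by NCL (−0.91), UTP20 (−1.44), RRP1B (−0.86) and MYBBP1A (−1.02 on the log2 scale). Of the 26, 24 were lower and 2 higher, where 32.7% and 26.4% of all 8969 genes tested were. The count of both directions together is near the background, while the share lower is above it and the share higher below it. In the mean of LAN5 and IMR5 minus SK-N-FI, 30 of 40 differed, led by PES1 (−1.16), NOP2 (−0.91), RRN3 (−0.76) and LYAR (−1.32). Of the 30, 29 were lower and 1 higher, against 28.4% and 18.9% of all genes tested. In LAN5 minus IMR5, 23 of 40 differed, led by NOP58 (0.76), FBL (−0.79), UBTF (0.69) and NOC3L (−0.56). Of the 23, 13 were lower and 10 higher, against 33.6% and 27.3% of all genes tested, which is no larger share than the background.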

How the results depend on the processing

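With an absolute deposited log2 change of at least 0.5 required, the members called for LAN5, IMR5, SK-N-FI and SK-N-BE(2) numbered 21, 19, 12 and 0, instead of 34, 36, 20 and 1. At an adjusted p under 0.01, the SK-N-BE(2) call of UBTF was lost (0 called) and members that differed between LAN5 and IMR5 went from 23 to 15. The median of the members in LAN5 was −0.42 after the median of all genes with a mean of at least 100 was subtracted, instead of −0.50 as deposited. The other counts stayed within 1.5 times and no median changed sign under the alternatives run. These include the transcript-length setting chosen after the data were seen. In the 2 settings that subtract a median, 15 values of single genes crossed the threshold. Both of these settings also adjust over genes with a mean of at least 100 only. No paired analysis was possible because the columns used hold no single libraries, and leaving out a replicate was not run for the same reason. Depth per library is unknown, so precision is given by the standard errors alone; in SK-N-FI these were the largest.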
